A study of Mus musculus with 9 samples.

Results

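The genes described here are those of CD47, its receptor SIRPα, the thrombospondins, CD36 and the pyroglutamate-forming enzymes QPCTL and QPCT. Their expression was measured in mouse lung cancer cells with and without an intact Cd47 gene. The set holds 10 genes (Cd47, Sirpa, Thbs1, Thbs2, Thbs3, Thbs4, Comp, Qpctl, Qpct and Cd36), taken by symbol from the 50813 genes listed. The rule itself uses no measured value, but these genes and the gene lists below were chosen with earlier results of these data known. Their counts are thus not independent of the data. All 10 were found. In all, 6 of the 10 and 14593 of the 50813 genes had enough reads to be tested, and the other 4 are described by their counts.

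CD47 is a cell surface protein that is present on most cells. When it binds SIRPα on a macrophage or dendritic cell, it inhibits phagocytosis, and when it binds thrombospondin-1, a secreted matrix protein, it signals into its own cell. QPCTL, a Golgi enzyme, turns the N-terminal glutamine of CD47 into pyroglutamate, which SIRPα needs for binding, and QPCT is a secreted enzyme of the same family. CD36 is a scavenger receptor that also binds thrombospondins.

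LLC is a Lewis lung carcinoma cell line of mouse origin, and the cells used here also carry luciferase. RNA from cultured cells was sequenced in 9 libraries. WT cells, which the series describes as clonal, gave 3 libraries, and the CD47 KO clones named E3 and E5 gave 3 each. No treatment or time course was given, and the study's methods call the 3 replicates of each genotype independent biological replicates. Both KO clones came from electroporation of Cas9 ribonucleoprotein with the same guide. Each line is 1 clone, so the effect of the knockout in a line and other properties of that clone cannot be told apart. Both comparisons with WT use the same 3 WT libraries.

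The guide and its target are shown to place the cut within the Cd47 transcript. The guide was searched on both strands of GRCm39 and had 1 perfect match, at chr16:49688453-49688472 on the plus strand, next to the PAM CGG. In the GENCODE annotation of that build the site lies in exon 2 of the 11 exons of the canonical Cd47 transcript, in coding sequence. The guide and the reference around its site (chr16:49688413-49688512, plus strand, guide in capitals) read as follows.

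Guide: tatagagctgaaaaaccgca

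Target: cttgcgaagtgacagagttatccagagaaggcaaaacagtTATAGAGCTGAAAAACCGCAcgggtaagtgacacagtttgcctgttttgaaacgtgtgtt

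Cas9 is known to cut such a site between bases 49688469 and 49688470. This position is 6 bases before the end of exon 2, which runs from 49688128 to 49688475. Of the 963 coding bases of the canonical transcript, 388 (40.3%) lie before the cut, which falls in codon 130 of 321, and 9 exon junctions lie after it. The cut falls in coding sequence in 41 of the 43 protein-coding Cd47 transcripts annotated. The indels that the clones carry were not analysed here. A read count on the gene includes reads from the whole transcript, before and after the cut, and it does not measure CD47 protein.

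Total counts were 44257404 to 55095219 per library. Replicate 3 of clone E3 stood apart from the other E3 libraries, with a median absolute deviation of 0.240 on the log2 scale from its line's mean, the largest of the 9. Mesenchymal markers were present in every library (5 of 5, summed level 6575 to 9339 CPM, counts per 1000000 counts of the library after TMM scaling). Of the 6 epithelial markers, Epcam was at 0 in all libraries and Cdh1 had at most 6 counts, and the list summed to 451 to 458 CPM in WT, 127 to 198 CPM in E3 and 896 to 957 CPM in E5, nearly all from Krt8 and Krt18. The defining macrophage markers Ptprc, Adgre1, Csf1r, Itgam and Tyrobp had at most 2 counts in any library, and the 10 macrophage markers summed to 14.6 to 15.3 CPM in WT, 12.7 to 17.4 CPM in E3 and 23.5 to 24.9 CPM in E5, mostly from Cd14 and Cd68. The 6 endothelial markers had at most 5 counts each.

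Cd47 (ENSMUSG00000055447.20, chr16:49620896-49735373 in GRCm39, as are all positions here), the targeted gene, was examined first. It was at 187, 179 and 182 CPM in the 3 WT libraries. It was at 47.4, 36.7 and 49.6 CPM in clone E3, and at 15.5, 18.6 and 18.1 CPM in clone E5. The 3 lines did not overlap, so every KO library carried less Cd47 RNA than every WT library and every E5 library less than every E3 library. Cd47 fell to 24.4% of the WT level in clone E3 (log2 fold change -2.03, SE 0.13, FDR 4.9e-06 by the quasi-likelihood test of edgeR, adjusted over all genes tested by Benjamini-Hochberg). It fell to 9.53% in clone E5 (-3.39, SE 0.14, FDR 1.07e-07). In a bulk library, fewer cells with the transcript and less of it per cell cannot be told apart.

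Clone E5 also differed from clone E3 directly, by -1.36 on the log2 scale for Cd47 (SE 0.13, FDR 2.76e-05). Thus Cd47 transcript was detected in both clones, well above the level of 3 counts (0.0555 to 0.0660 CPM), and it was left at different levels in the clones. Gm4633, a gene on the opposite strand that shares 378 bases (4.31%) of the Cd47 exons, had 9 to 19 counts per library.

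**Figure D1:**
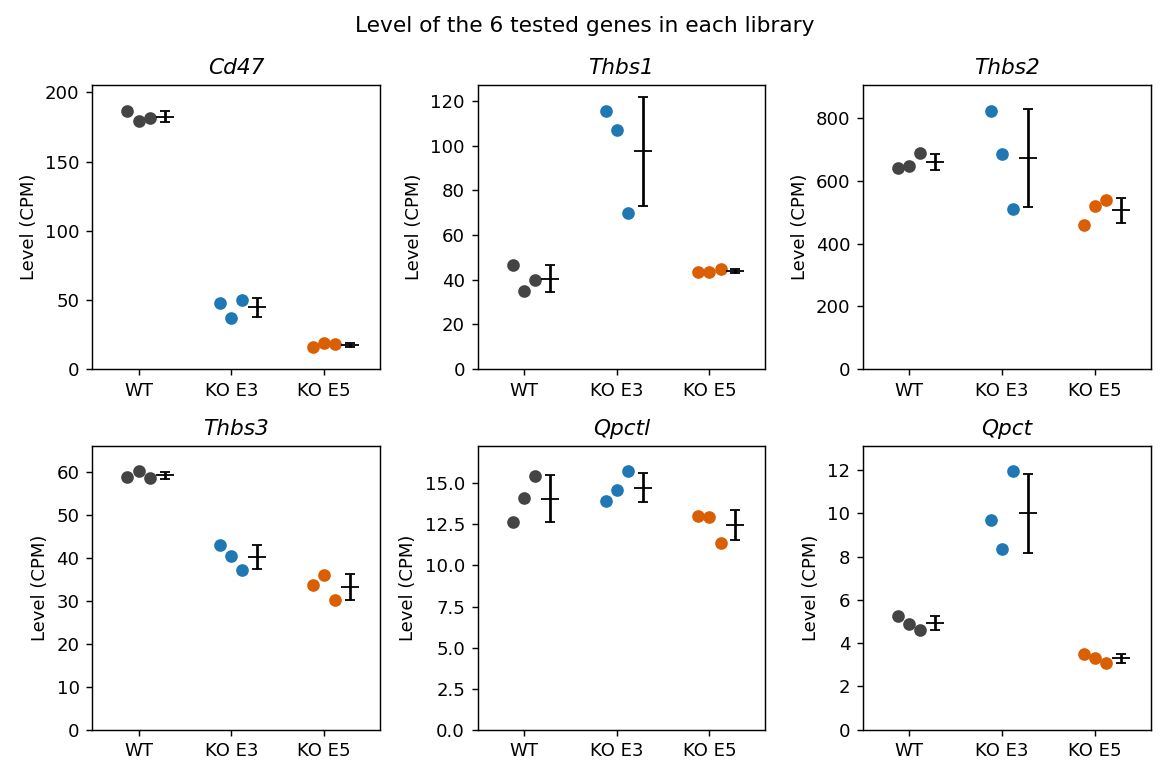
Level of the 6 tested genes in CPM (vertical axis from 0) in WT, KO E3 and KO E5. Each point is 1 library (replicates 1 to 3 from left to right) and the bar beside it is the mean ± SD. Cd47 falls in steps from WT to E3 to E5, Thbs1 and Qpct are highest in E3, and Thbs3 is lower in both clones than in WT.

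Set beside all genes tested, the members were called as follows. In clone E3, 4 of the 6 tested genes passed at an FDR under 0.05, Thbs1 and Qpct higher and Cd47 and Thbs3 lower, against 30.5% of all genes tested (15.7% higher, 14.7% lower). Of these, Thbs1, Qpct and Cd47 also exceeded 1 on the log2 scale, the study's definition of a DEG, which 9.82% of all genes met (5.43% higher, 4.39% lower). In clone E5, 3 of 6 passed, Cd47, Thbs3 and Qpct, all lower, against 20.6% of all genes (8.96% higher, 11.7% lower). The DEG among them was Cd47, where 8.21% of all genes were DEGs (2.69% higher, 5.52% lower). Between the clones 3 of 6 passed, Cd47, Thbs1 and Qpct, all lower in E5 and all DEGs, against 31.9% of all genes that passed (14.7% higher, 17.2% lower) and 11% that were DEGs (3.49% higher, 7.52% lower).

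Cd47 was the targeted gene, so its fall is the design and not a finding among the members. It is still included in the counts above and in the counts and medians below. Its outcome in the comparisons with WT was thus set in advance, and the members' excess over all genes includes it. Libraries of the 2 lines did not overlap for 4 of 6 genes in E3 against WT, where 45.4% of all genes did not overlap, and for 4 of 6 in E5 against WT, against 55.4%. Between the clones 5 of 6 did not overlap, against 44.6%. The median log2 fold change of the tested members was 0.05, -0.48 and -0.78 in the 3 comparisons, beside 0.01, -0.0023 and -0.01 over all genes. Without replicate 3 of clone E3, 4, 4 and 5 of the 6 members passed in the 3 comparisons, and the genes called among all tested were 6423, 6246 and 6555 (43.2%, 42% and 44.1%) in place of 4445, 3012 and 4661.

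**Figure D2:**
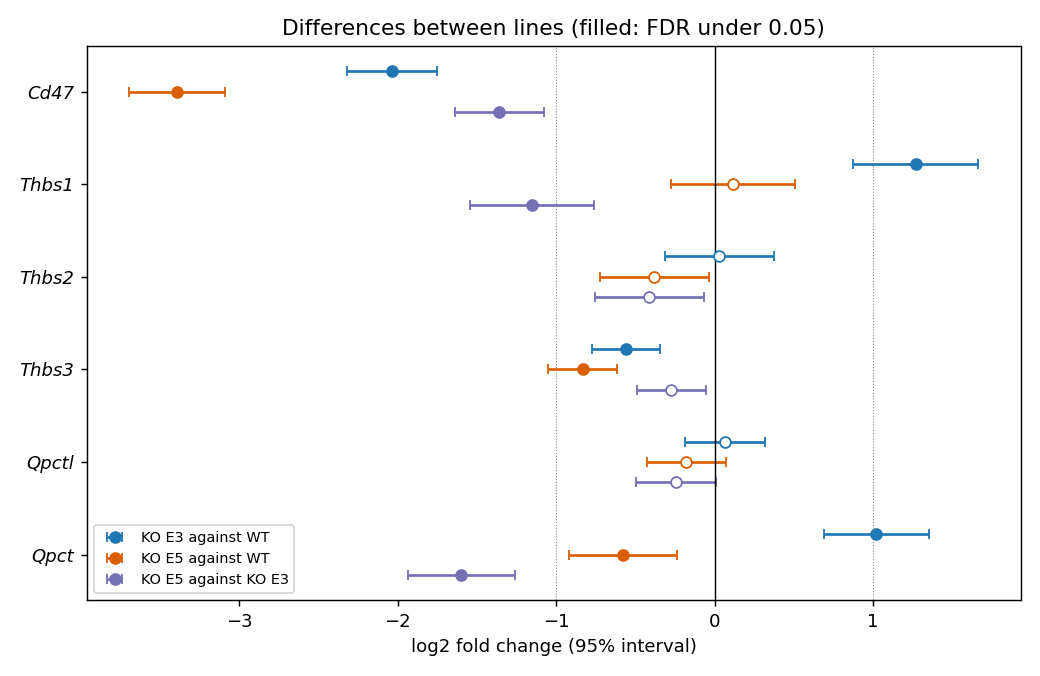
log2 fold change of the 6 tested genes with 95% intervals (horizontal axis) for KO E3 against WT, KO E5 against WT and KO E5 against KO E3. Filled points have an FDR under 0.05, and dotted lines mark a log2 fold change of 1 in either direction. Thbs1 is 1.27 in E3 and 0.12 in E5, and Qpct is 1.02 in E3 and -0.58 in E5.

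The receptor that CD47 engages on phagocytes was not detected in these tumor cells. Sirpa, at chr2:129434755-129474148, had 0 counts in all 9 libraries, which at 3 counts allows at most 0.0555 to 0.0660 CPM per library and covers counting error only. A count of 0 in every library was found for 24655 of the 50813 genes (48.5%) and for 6039 of 21502 protein-coding genes (28.1%). Some of its protein-coding neighbours on chromosome 2 were counted, such as Stk35 with 1897 to 3586 counts and Slc20a1 with 2072 to 5633 counts. Others were at or near 0, among them F830045P16Rik and Pdyn, the nearest on either side, both at 0. The related genes Sirpb1a, Sirpb1b and Sirpb1c were at 0 as well. Whether reads of Sirpa could be assigned in the authors' counting was not tested.

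Of the SIRPα partner list, 5 of 10 listed genes were tested, and these act downstream of many receptors. In clone E3 1 fell, where 30.5% of all genes passed. It was Ptpn6, the phosphatase SHP-1 that SIRPα recruits (-0.62, SE 0.11, FDR 0.00213). In clone E5 1 fell, where 20.6% of all genes passed. It was Jak2, a cytokine receptor kinase (-0.78, SE 0.14, FDR 0.00251). Without E3 replicate 3 the count in E5 was 2, where 42% of all genes passed. Ptpn11, the phosphatase SHP-2, was at 204 ± 10.4 CPM in WT, 194 ± 54.5 in E3 and 183 ± 9.62 in E5 (SD, n = 3) and did not pass in either clone, with FDR 0.789 and 0.568.

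Thbs1 (chr2:117942357-117957614) encodes thrombospondin-1, the ligand through which CD47 signals into its own cell. Its level was 46.7, 34.9 and 39.7 CPM in WT, 116, 107 and 69.7 CPM in clone E3 and 43.2, 43.6 and 44.6 CPM in clone E5. All E3 libraries lay above all WT and E5 libraries, with replicate 3 the lowest of the E3 libraries, while the E5 libraries lay within the WT range. Thbs1 rose in clone E3 (1.27, SE 0.18, FDR 0.000539). In clone E5 the log2 fold change was 0.12 (95% interval -0.27 to 0.51, FDR 0.696), and the direct difference between the clones was -1.15 (SE 0.18, FDR 0.000805). Without replicate 3 of clone E3 the log2 fold change in E3 was 1.46.

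Thbs2 (chr17:14885762-14914497) encodes thrombospondin-2, a close relative of thrombospondin-1 that forms trimers like it. It was at 642, 649 and 688 CPM in WT, 824, 686 and 511 CPM in clone E3 and 460.3, 520.4 and 538 CPM in clone E5. The E3 libraries spanned the WT range on both sides, and every E5 library lay below every WT library. Neither clone passed the test (E3: 0.03, 95% interval -0.31 to 0.37, FDR 0.907; E5: -0.38, 95% interval -0.73 to -0.04, FDR 0.111). The call in E5 changed without replicate 3 of clone E3, where the value was -0.38 with FDR 0.00338. The difference between the clones was -0.41 (FDR 0.0667), and -0.57 without that library (FDR 0.000383).

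Thbs3 (chr3:89122487-89134144) belongs to the thrombospondins that form pentamers. Its level was 58.8, 60.1 and 58.6 CPM in WT, 42.9, 40.4 and 37.2 CPM in clone E3 and 33.6, 36.0 and 30.0 CPM in clone E5. Each line lay entirely below the one before. Thbs3 fell in clone E3 (-0.56, SE 0.097, FDR 0.00186) and in clone E5 (-0.83, SE 0.098, FDR 0.000196), in neither case past 1 on the log2 scale. The clones differed by -0.27 (FDR 0.0548), which did not pass with all libraries and did without replicate 3 of clone E3 (-0.32, FDR 0.00643). Mtx1, on the opposite strand, shares 347 bases (7.11%) of the Thbs3 exons and had log2 fold changes of -0.03 and -0.03 in the clones, neither of which passed.

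The other pentameric thrombospondins were at or near the limit of detection. Thbs4, at chr13:92888098-92931326, had 0 counts in all 9 libraries. Comp (chr8:70826208-70834716), best known from cartilage, had 5, 6 and 12 counts in WT, 8, 8 and 17 counts in clone E3 and 4, 5 and 6 counts in clone E5, too few to be tested. Both clones overlapped WT, and every E5 library lay below every E3 library. Cd36 (chr5:17986688-18093799), the other thrombospondin receptor of the set, had 2, 0 and 1 counts in WT and 0 in the 6 KO libraries.

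Compared per length of the union of their exons, Thbs2 was the most abundant thrombospondin transcript in every library. Its share of the summed thrombospondin level was 81.0% ± 1.03 in WT, 77.4% ± 1.12 in E3 and 81.6% ± 1.46 in E5 (SD, n = 3). The share of Thbs1 was 6.43% ± 0.972 in WT, 14.4% ± 0.967 in E3 and 9.17% ± 0.504 in E5, and that of Thbs3 was 12.5% ± 0.485, 8.11% ± 1.32 and 9.21% ± 1.11. On this length Thbs3 exceeded Thbs1 in every WT library and Thbs1 exceeded Thbs3 in every E3 library, while in E5 the ratio of Thbs1 to Thbs3 ran from 0.916 to 1.12. With the length of the canonical transcript the ratio was 0.297 to 0.406 in WT, 0.959 to 1.38 in E3 and 0.620 to 0.760 in E5, so Thbs3 then exceeded Thbs1 in every E5 library and E3 libraries lay on both sides of 1.

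The ratio of Thbs2 to Thbs1 within a library does not depend on the scaling between libraries. It was 10.6 to 14.4 in WT, 4.96 to 5.66 in clone E3 and 8.22 to 9.31 in clone E5. The lines did not overlap in this ratio, and in E3 it was similar in all replicates although replicate 3 had the lowest level of both genes. The summed thrombospondin level was 97.3 ± 2.80 CPM per kb in WT, 104 ± 23.0 in E3 and 74.2 ± 4.80 in E5. Shares and ratios are given as descriptions without a test.

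**Figure D3:**
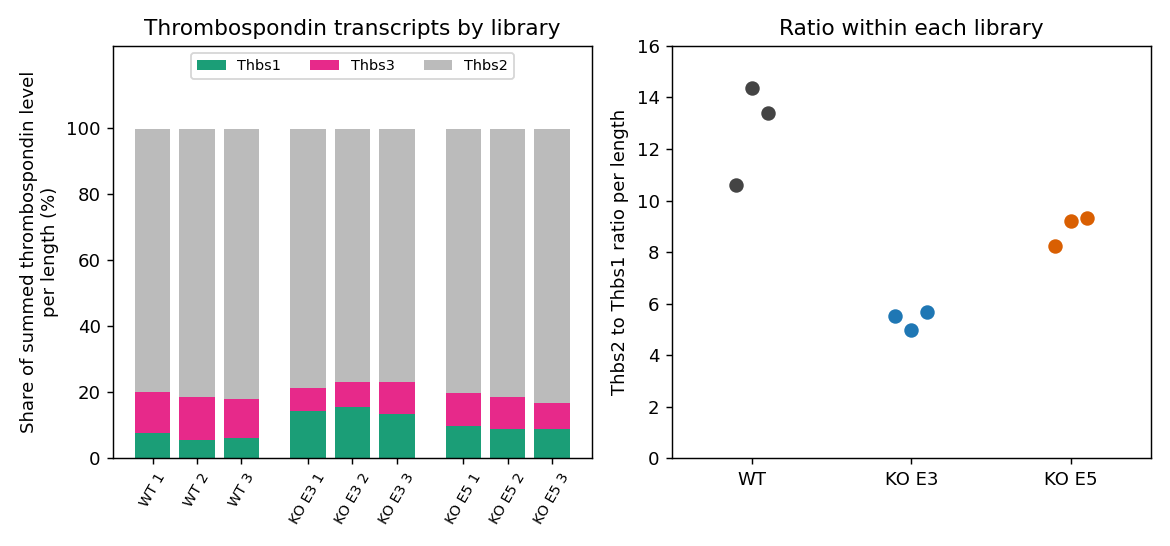
Left, share (%) of Thbs1, Thbs3 and Thbs2 in the summed thrombospondin level per exon length, 1 bar per library (Thbs4 and Comp, at or near 0, are not visible). Right, ratio of Thbs2 to Thbs1 per exon length, 1 point per library. The Thbs1 share is 13.6% to 15.5% in the E3 libraries against 5.66% to 7.52% in WT, and the ratio is lowest in E3.

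The glutaminyl cyclases, the enzymes that form N-terminal pyroglutamate, behaved differently from each other. Qpctl (chr7:18873627-18883216), the Golgi enzyme that acts on CD47, was at 12.6, 14.1 and 15.5 CPM in WT, 13.9, 14.6 and 15.7 CPM in clone E3 and 13.0, 12.9 and 11.4 CPM in clone E5. The clones overlapped WT, and neither passed (E3: 0.07, 95% interval -0.18 to 0.32, FDR 0.695; E5: -0.18, 95% interval -0.43 to 0.07, FDR 0.312). Fbxo46, on the opposite strand, shares 1761 bases (26.3%) of the Qpctl exons, and it did not pass in either clone. Snrpd2, also on the opposite strand, shares 294 bases (4.39%) and had 3117 to 5352 counts per library. It did not pass in either clone (FDR 0.594 and 0.939).

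Qpct (chr17:79359335-79397807), the secreted enzyme, was at 5.27, 4.88 and 4.62 CPM in WT, 9.72, 8.35 and 11.9 CPM in clone E3 and 3.51, 3.30 and 3.09 CPM in clone E5. The 3 lines did not overlap, with E3 above and E5 below WT. Qpct rose in clone E3 (1.02, SE 0.15, FDR 0.000671) and fell in clone E5 (-0.58, SE 0.15, FDR 0.0229), and E5 differed from E3 by -1.60 (SE 0.15, FDR 3.2e-05). The call in E5 was lost when any of 4 libraries was left out: the FDR was 0.084 without WT replicate 1, 0.0686 without WT replicate 2, 0.0751 without E5 replicate 2 and 0.0767 without E5 replicate 3. Without E3 replicate 3 the rise in E3 was 0.87 (FDR 0.000153), no longer past 1. Leaving out WT replicate 3 also left the rise in E3 short of 1.

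Per length, Qpctl and Qpct were at similar levels in WT, at 2.10 and 1.78 CPM per kb. The ratio of Qpctl to Qpct was 0.987 to 1.38 in WT, 0.542 to 0.720 in clone E3 and 1.52 to 1.62 in clone E5. Qpct thus exceeded Qpctl in every E3 library and Qpctl exceeded Qpct in every E5 library, while WT libraries went either way. With the length of the canonical transcript the ratio was 1.23 to 1.72 in WT, 0.677 to 0.899 in E3 and 1.90 to 2.02 in E5. The glutaminyl cyclases also act on chemokines, and all 3 genes on a list of such clients were tested. None passed in E3, where 30.5% of all genes passed, and 1 passed in E5, where 20.6% did. Cx3cl1, a membrane-bound chemokine, was at 21.9, 20.2 and 20.9 CPM in WT, 25.8, 20.6 and 22.9 CPM in E3 and 30.3, 29.9 and 28.4 CPM in E5, and it rose in E5 (0.49, SE 0.10, FDR 0.00715). Ccl2 and Ccl7, which attract monocytes, did not pass in E5, with FDR 0.312 and 0.114, although Ccl7 did without E3 replicate 3 (FDR 0.0453) or E5 replicate 3 (FDR 0.0484).

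Levels of different genes were compared per kb of exon. In WT the order was Thbs2 (78.9 CPM per kb), Cd47 (20.8), Thbs3 (12.1), Thbs1 (6.26), Qpctl (2.10) and Qpct (1.78), of which Qpctl and Qpct overlapped. In clone E3 it was Thbs2 (80.5), Thbs1 (15.1), Thbs3 (8.22), Cd47 (5.08), Qpct (3.62) and Qpctl (2.20), of which Cd47 and Qpct overlapped. In clone E5 it was Thbs2 (60.5), Thbs3 (6.80), Thbs1 (6.78), Cd47 (1.98), Qpctl (1.86) and Qpct (1.19), of which Thbs3 and Thbs1, and Cd47 and Qpctl, overlapped. The place of Cd47 depends on the length used, since the union of its exons is 8768 bases and its canonical transcript 1627. With the canonical length Cd47 was at 112 CPM per kb in WT, overlapping Thbs2 at 111, and it came after Thbs2 in both clones, at 27.4 in E3 and 10.7 in E5.

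The ratio of Thbs1 to Cd47 transcript was higher in both clones than in WT. Cd47 is the targeted gene, so its fall alone raises this ratio by design. The Cd47 RNA that remains does not measure CD47 protein. Thbs1 was 0.264 to 0.339 of Cd47 per exon length in WT, 1.91 to 3.95 times Cd47 in clone E3 and 3.18 to 3.79 times in clone E5. Whether Thbs1 exceeded Cd47 depended on the length used: with the canonical transcripts the ratio was 0.0508 to 0.0652 in WT, 0.367 to 0.758 in E3 and 0.612 to 0.728 in E5, below 1 in every library and higher in both clones than in WT. In E5 this came with a Thbs1 level within the WT range, and in E3 with a Thbs1 level above it.

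Genes whose levels ran most like Cd47 over the 9 libraries were found by Euclidean distance of log2 CPM centred on the WT mean, among 10932 genes. They were Enox1 (distance 1.41), Lratd2 (1.54), Rbp4 (1.59), Ggt7 (1.60) and Gfi1 (1.61), beside a median distance of 6.90. Enox1, for example, lay at -1.75 in E3 and -2.99 in E5, where Cd47 lay at -2.04 and -3.39. For Thbs1 they were Pik3r3 (0.323), Ttyh3 (0.460), Zbtb46 (0.507), Aph1b (0.537) and Sema4g (0.589), beside a median of 2.43. These genes were selected for the pattern, so no test applies to it.

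The wider list of CD47 membrane partners and signalling proteins had 23 genes, 19 of them tested. In clone E3 4 rose and 4 fell, with a median log2 fold change of 0.10, where 30.5% of all genes passed. In clone E5 1 rose and 3 fell, with a median of -0.03, where 20.6% of all genes passed. Without replicate 3 of clone E3 these counts were 7 and 6 in E3, and 4 and 4 in E5, where 43.2% and 42% of all genes passed. Fyn, a Src-family kinase linked to CD47 signalling, fell in both clones. It was at 131, 139.6 and 139 CPM in WT, 39.9, 33.3 and 35.3 CPM in E3 and 36.1, 50.0 and 58.2 CPM in E5. The clones and WT did not overlap (E3: -1.92, SE 0.16, FDR 2.66e-05; E5: -1.50, SE 0.16, FDR 9.08e-05), and the clones differed by 0.41 (FDR 0.0672), which passed without E3 replicate 3 (FDR 0.0476) or E5 replicate 1 (FDR 0.00825).

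Ubqln2, a relative of the ubiquilin that links CD47 to G proteins, rose in both clones, by 0.38 in E3 (FDR 0.0309) and 0.66 in E5 (FDR 0.00263). The call in E3 was lost without any of 6 libraries, namely the 3 WT libraries, E3 replicates 1 and 2 and E5 replicate 2 (FDR 0.0597 to 0.111). Becn1, an autophagy protein, fell in E5 (-0.39, SE 0.087, FDR 0.0094) and was -0.20 in E3 (FDR 0.11). Its direct difference between the clones did not pass (-0.19, FDR 0.113). The call in E5 was lost without WT replicate 2 (FDR 0.0546), and Becn1 passed in E3 without E3 replicate 3 (FDR 0.00616). Itga6, a laminin-binding integrin chain, was at 562, 592 and 596 CPM in WT, 254, 256 and 141 CPM in E3 and 429, 462 and 495 CPM in E5. Every library of either clone lay below WT, but Itga6 passed in E3 (-1.43, SE 0.20, FDR 0.000482) and not in E5 (-0.34, FDR 0.256), and the clones differed by 1.09 (FDR 0.00195). Without E3 replicate 3, Itga6 passed in E5 as well (-0.33, FDR 0.00182).

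The integrin chains that are best known as partners of CD47 were named after their values were seen. Itgb3, the β3 chain, was low, at 0.881, 1.11 and 1.18 CPM in WT, 1.40, 1.23 and 0.945 CPM in E3 and 0.129, 0.304 and 0.166 CPM in E5. All E5 libraries lay below the others, and Itgb3 fell in E5 (-2.40, SE 0.32, FDR 0.000494) with a difference between the clones of -2.57 (FDR 0.000218). Its partner chain Itgav (144.6 ± 10.6 CPM in WT, SD, n = 3) and the β1 chain Itgb1 (745 ± 11.7 CPM) did not pass in either clone, with FDR 0.151 and 0.498 for Itgav and 0.761 and 0.708 for Itgb1. Without E3 replicate 3, Itgav passed in E3 (0.68, FDR 0.000257). Itga2b, the αIIb chain, was low, at 1.47 ± 0.314 CPM in WT, 2.82 ± 0.602 in E3 and 1.44 ± 0.140 in E5. It rose in E3 (0.94, SE 0.22, FDR 0.00878), was -0.03 in E5 (FDR 0.945) and differed between the clones by -0.97 (FDR 0.00711).

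Of 12 other thrombospondin receptors, 11 were tested, with 2 higher and 1 lower in clone E3 (median 0.12, against 30.5% of all genes) and 3 higher and 2 lower in clone E5 (median -0.07, against 20.6%). Without E3 replicate 3 the counts were 4 and 1 in E3, and 3 and 4 in E5, against 43.2% and 42%. The share of these receptors called in E3 was near that of all genes. Stim1, a calcium sensor of the endoplasmic reticulum, rose in both. It was at 15.4, 16.4 and 16.1 CPM in WT, 27.6, 25.2 and 22.6 CPM in E3 and 22.1, 21.0 and 21.1 CPM in E5, and the KO libraries all lay above WT (0.65, SE 0.099, FDR 0.000856; 0.42, SE 0.099, FDR 0.0124). The call in E5 was lost without any of the 3 WT libraries or E5 replicate 1 (FDR 0.0505 to 0.0643). Cacna2d1, a calcium channel subunit, fell in E5 (-0.82, SE 0.18, FDR 0.0107) and was -0.36 in E3 (FDR 0.163), and its call in E5 was lost without E5 replicate 1 (FDR 0.0506). Its direct difference between the clones did not pass (-0.45, FDR 0.0855). Sdc1, a heparan sulfate proteoglycan, rose in E5 (0.51, SE 0.097, FDR 0.00435), was 0.12 in E3 (FDR 0.393) and differed between the clones by 0.39 (FDR 0.0118).

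Lrp1 and Calr, the endocytic receptor and the chaperone that together bind the N-terminal part of thrombospondin-1, were also named after their values were seen. Lrp1 was at 172, 180.2 and 192 CPM in WT, 229.9, 299 and 115 CPM in E3 and 385, 412 and 476 CPM in E5. The E5 libraries lay above all others. In E3, replicates 1 and 2 lay above WT and replicate 3, the library that stood apart, lay below it. Lrp1 rose in E5 (1.23, SE 0.27, FDR 0.00893), was 0.24 in E3 (FDR 0.525) and differed between the clones by 0.98 (FDR 0.0176). Its value in E3 without replicate 3 is not given here. Calr rose in E3 (0.84, SE 0.15, FDR 0.00181) and was -0.16 in E5 (FDR 0.487).

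**Figure D4:**
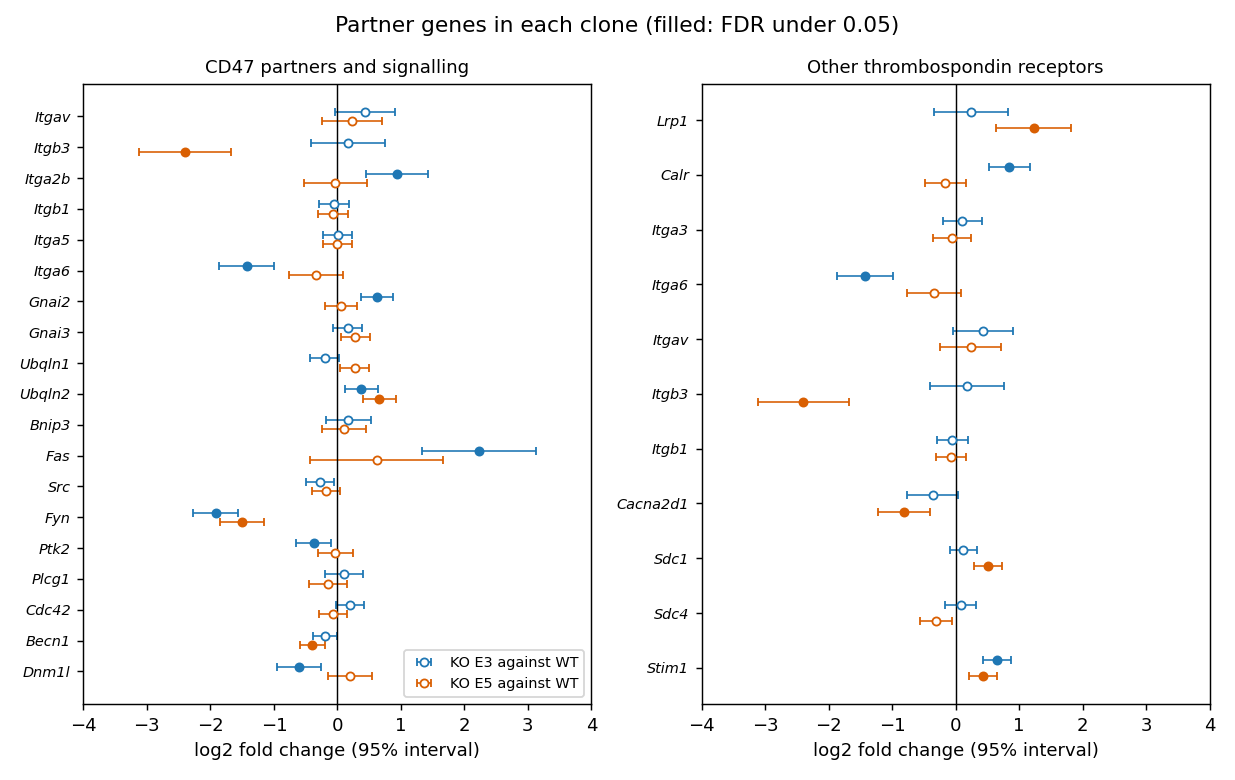
log2 fold change with 95% interval (horizontal axis) of the 19 tested CD47 partner and signalling genes (left) and the 11 tested thrombospondin receptors (right) in KO E3 and KO E5, each against WT. Filled points have an FDR under 0.05. Fyn is low in both clones (-1.92 and -1.50), and Itgb3 is low in E5 (-2.40).

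Thrombospondin-1 acting on CD47 is known to inhibit nitric oxide signalling, but few genes of that path were expressed. Of 8 genes listed, 4 were tested. In E3 1 rose and 1 fell, where 30.5% of all genes passed, and in E5 1 fell, where 20.6% passed. Prkg2, a cGMP-dependent kinase, fell in E3 (-0.95, SE 0.12, FDR 0.000258), was -0.13 in E5 (FDR 0.496) and differed between the clones by 0.82 (FDR 0.000474). The nitric oxide synthase genes Nos1 and Nos3 were low, with mean levels of 0.290 and 0.247 CPM in WT. Nos1 fell in E5 (-1.92, SE 0.47, FDR 0.0164), a call lost without WT replicate 1 or 2 or E5 replicate 1 or 2 (FDR 0.0547 to 0.0654). Nos3 rose in E3 (1.12, SE 0.36, FDR 0.0384), a call lost without any library but E3 replicate 2 (FDR 0.0506 to 0.132).

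Of 8 transcription factors linked to Cd47 expression in other cells, all were tested. In clone E3 1 rose, Snai1, a repressor of epithelial genes (1.02, SE 0.11, FDR 0.000123), and 2 fell, Myc, a growth regulator (-1.48, SE 0.13, FDR 3.01e-05), and Hif1a, a factor of the hypoxia response (-0.55, SE 0.15, FDR 0.0174; lost without WT replicate 2 or 3, FDR 0.0623 and 0.0664). Myc was at 540.5, 638 and 646 CPM in WT, 230.5, 182 and 239 CPM in E3 and 658, 721 and 671 CPM in E5, so that all E3 libraries lay below all others. In clone E5 the log2 fold changes of these factors were -0.28 for Snai1 (FDR 0.1), 0.17 for Myc (FDR 0.383) and 0.03 for Hif1a (FDR 0.909). Whether any of them bears on the level of Cd47 RNA in these clones was not tested. The count in E3 stood against 30.5% of all genes. Without E3 replicate 3, 2 factors were higher and 3 lower in E3, against 43.2% of all genes, and 2 were lower in E5, against 42%, among them Snai1 (-0.28, FDR 0.0393). The clones differed by 1.65 for Myc (FDR 7.07e-06), by -1.30 for Snai1 (FDR 1.46e-05) and by 0.58 for Hif1a (FDR 0.0127).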

How the data were processed

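Polyadenylated RNA of 9 cultured LLC libraries was prepared with a strand-preserving kit and sequenced in paired-end mode. The authors used FastQC for read quality, Trimmomatic for trimming and STAR for alignment to GRCm39. The deposited values are raw counts per gene and replicate, not normalized. The counting tool, its strand setting and the annotation release were not given in the sources used here, so exons shared with genes on the opposite strand are a stated uncertainty.

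From these counts, filterByExpr kept 14593 genes, with a minimum count of 10 and a minimum total of 15. Counts were scaled by TMM, and the 3 lines were fitted in 1 model with the quasi-likelihood test of edgeR 4.0.16 in R 4.3.3, with p-values adjusted over all tested genes by Benjamini-Hochberg (FDR). The study used DESeq2, which was run here as an alternative (version 1.42.0). A gene passed at an FDR under 0.05 and was a DEG when its log2 fold change also exceeded 1 in size. The SE of a log2 fold change was derived from its F statistic. Levels are TMM-scaled CPM, and per kb of the union of exons (GENCODE, GRCm39) between genes. The detection limit was set at 3 counts and covers counting error only. Group labels came from the sample descriptions. The sample titles give replicate numbers but do not say whether these pair the libraries, and the main fit used no replicate block.

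The members and all gene lists were chosen with earlier results of these data known. The genes named from each list were up to 4 of those that passed in at least 1 clone, by the smallest larger FDR of both clones. The test was checked on simulated counts. Alternatives were DESeq2, DESeq2 size factors, upper-quartile scaling, other filters on low counts, only the 2 lines compared, a replicate block, each library left out, and for levels the canonical transcript length and unscaled CPM.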

Additional observations from a re-analysis of the deposited data

Results flagged for a closer look

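The effects of the clones, each set against the same WT libraries, differed for 3 of the 6 tested genes by the direct test of clone E5 against clone E3. In that test 31.9% of all genes tested passed and 11% were DEGs. Qpct was lower in E5 than in E3 by a log2 fold change of -1.60 (FDR 3.2e-05), with E3 above and E5 below WT. Thbs1 was lower by -1.15 (FDR 0.000805), with every E3 library above every E5 library. Cd47 was lower by -1.36 (FDR 2.76e-05), with both clones below WT. The cause of these differences was not tested.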

How the results depend on the processing

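Of the members' log2 fold changes under the alternatives, 274 kept their direction and side of the threshold, 8 newly passed, 4 no longer passed and 2 changed sign. Those 2 were near 0 throughout: with single libraries left out, Thbs2 in E3 ran from -0.14 (without E3 replicate 1, FDR 0.479) to 0.19, and Qpctl in E3 from -0.0091 (without WT replicate 1, FDR 0.969) to 0.14. Of the named partner genes' values, run through the same alternatives after the data were seen, 654 kept direction and side, 12 newly passed, 31 no longer passed and 4 changed sign. The sign changes were in values that did not pass: Itgb1 in E3 was 0.021 under upper-quartile scaling, and with single libraries left out it ran from -0.12 to 0.051, Ptpn11 in E3 from -0.28 to 0.12 and Hif1a in E5 from -0.019 to 0.063. Nos3 in E3 was also lost with DESeq2 (FDR 0.0602). Itga2b was not run through the alternatives. Nor were the differences between the clones for Becn1, Cacna2d1, Sdc1, Lrp1, Calr, Prkg2 and Hif1a. Between the clones 5 members passed under upper-quartile scaling, with Thbs2 (FDR 0.0221) and Thbs3 (FDR 0.0135) added. With only the 2 lines compared, 6596 genes passed in E5, Thbs2 among them (FDR 0.00126). With the canonical length, 3 of 6 members kept their place in the order of levels in E3 and 3 in E5.

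Leaving out each library gave 2875 to 6423 genes called in E3, 1767 to 6246 in E5 and 3235 to 6555 between the clones, against 4445, 3012 and 4661. The highest values were all without E3 replicate 3, and the lowest without WT replicate 2 or, between the clones, without E5 replicate 2. Members called were 4 to 4, 2 to 4 and 3 to 5. Same-numbered libraries did not deviate together (correlation -0.316 to 0.140, 1 of 9 over 0.1). With 3 libraries per line, 1 of them standing apart in E3, this cannot exclude that same-numbered libraries were handled together. With the replicate block 3664, 2309 and 3887 genes passed, and 4, 3 and 3 members, while Ubqln2 and Nos3 in E3 did not pass.

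Comp, Cd36, Sirpa and Thbs4 had too few counts to be compared, and Nos1, Nos3 and, in E5, Itgb3 rest on few counts (1 to 15, 10 to 36 and 6 to 14 per library). The cause of the changed calls was not tested.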
